A study of Mus musculus with 25 samples.

Results

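The fecal bacteria of C57BL/6 mice that had the OVX operation and then FMT were compared with those of mice that had OVX and then PBS. OVX commonly stands for ovariectomy, removal of the ovaries, and FMT for fecal microbiota transplantation. PBS, a buffered saline, was the control of the transplant. The comparison took the 5 libraries labelled OVX+FMT and the 5 labelled OVX+PBS, 10 of the 25 libraries of the study. All 10 share the operation. The other 15 came from the groups Sham, OVX and OVX+GEX, with 5 libraries each, where GEX is a name that the labels use without explaining it. The labels name neither the donors of the transplant nor its dose, day or number, nor the age or housing of the mice, and their sex field is at odds with ovariectomy, so the sex is not given here. Libraries were made from stool DNA and sequenced as full-length 16S rRNA gene amplicons on a PacBio instrument.

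The 16S rRNA gene is carried by all bacteria, and its sequence places a bacterium among its relatives. An amplicon sequence variant (ASV) is 1 distinct 16S sequence, and 1 bacterium can carry several slightly different copies of the gene, so that it gives several ASVs in fixed proportions. A transplant of feces puts the bacteria of a donor into the gut of a recipient, where they meet a resident community. The mouse gut community is made mostly of Muribaculaceae, which break down plant and host glycans, of lactobacilli, and of many clostridia of the families Lachnospiraceae and Oscillospiraceae, which ferment fibre to short-chain fatty acids. Shares of 16S counts are relative: a rise of 1 genus lowers the share of the others, and fewer bacteria of a genus cannot be told apart from more of the rest.

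The 10 libraries held 903 ASVs and 94 genera in 131389 counts. Totals ran from 9484 to 22403 counts in OVX+FMT and from 8558 to 21751 in OVX+PBS, and 3 libraries (OVX+FMT replicates 1 and 5 and OVX+PBS replicate 1) were above 15000. The 95% Wilson interval of a genus share in 1 library reached at most 1.05 percentage points either way, and a count of 0 allows 3 counts, on average 0.0237% of an OVX+FMT library and 0.0287% of an OVX+PBS library; both cover counting error only. OVX+FMT replicate 4 stood apart from the rest of its group, so results are given with and without it. It is left out because of its values. Where it is the highest or lowest OVX+FMT library, leaving it out moves the group mean before any test. Values and p-values without it are then a description. A list of 12 genera often seen as reagent contaminants had 0 counts in every library. Nothing in the labels says which mice shared a cage, and p-values rest on the spread between libraries, some of which may be technical.

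The transplanted and the PBS mice shared most of their bacteria. Of the 903 ASVs, 335 were found in both groups and held 92.0% of the counts in OVX+FMT and 94.6% in OVX+PBS. Only 30 ASVs were found in all 10 libraries, and these held 57.1% and 61.8% of the counts. A further 318 ASVs were found in OVX+FMT and in none of the OVX+PBS libraries, with 8.01% of the OVX+FMT counts, and 250 were found in OVX+PBS alone, with 5.40% of the OVX+PBS counts. Of the 318, 101 were in none of the other 15 libraries either, as were 106 of the 250.

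Bray-Curtis distances, which run from 0 for identical ASV shares to 1 for none in common, averaged 0.450 within OVX+FMT, 0.454 within OVX+PBS and 0.478 between the groups. Group membership took up 0.161 of the variation (R2, the part of the squared distances that lies between the groups), which the exact permutation test over 252 splits did not place past the threshold (p = 0.151, adjusted p = 0.528 over 7 community measures). Without OVX+FMT replicate 4 the value was 0.208 (exact p = 0.0794 over 126 splits, adjusted p = 0.278). On presence of ASVs alone, with Jaccard distances, R2 was 0.129 with that library and 0.146 without it (adjusted exact p = 0.528 and 0.278). The smallest exact p that either design allows is 0.00794, which for 1 measure alone becomes 0.0556 after adjustment over 7.

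OVX+FMT replicate 4 lay 0.505 to 0.689 from the other OVX+FMT libraries, while those 4 lay 0.300 to 0.422 from each other. Its nearest library among all 25 was Sham replicate 2, at 0.458. The library nearest to OVX+FMT replicate 1 was OVX replicate 5, at 0.266, and that nearest to OVX+FMT replicate 5 was OVX+GEX replicate 5, at 0.281. OVX+FMT replicates 2 and 3 were nearest to OVX+FMT replicate 1. In OVX+PBS, replicates 1 and 3 were nearest to each other, replicate 2 to OVX+FMT replicate 1, replicate 4 to OVX+GEX replicate 5, and replicate 5 to OVX+PBS replicate 4. The nearest library was thus from another group for 5 of the 10.

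**Figure D1:**
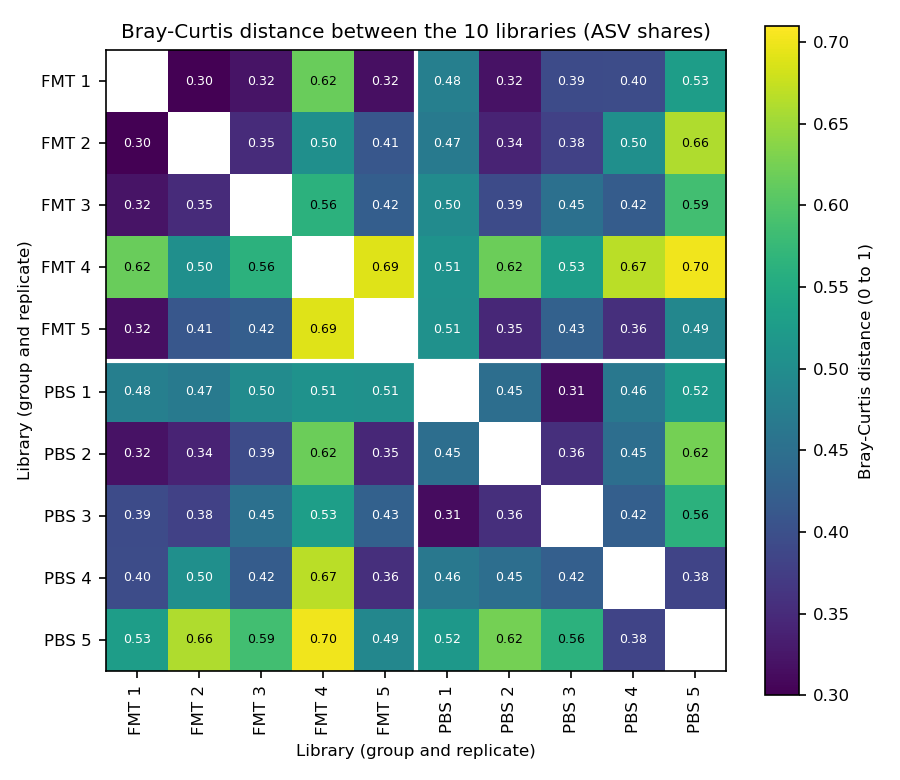
Bray-Curtis distances between ASV shares of the 10 libraries, on a colour scale from 0.30 to 0.71, with the groups parted by white lines. OVX+FMT replicate 4 and OVX+PBS replicate 5 form the light rows, and the highest distance, 0.701, lies between them.

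The scatter within a group, as the mean distance of its libraries to the group's centre, was 0.282 ± 0.100 in OVX+FMT and 0.289 ± 0.0543 in OVX+PBS (SD, n = 5; adjusted exact permutation p = 0.897). With OVX+FMT replicate 4 left out it was 0.216 ± 0.0398 (n = 4) against the same 0.289, an exact p of 0.0556 and 0.278 after adjustment.

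The number of ASVs expected in a sample of equal depth was 266, 230, 221, 299 and 201 in OVX+FMT replicates 1 to 5 and 337, 209, 226, 159 and 130 in OVX+PBS replicates 1 to 5. The libraries with the most and the fewest ASVs were both OVX+PBS libraries, and the groups overlapped (243 ± 39.0 against 212 ± 79.5, SD, n = 5; adjusted exact permutation p = 0.644). The Shannon index, which also counts evenness, was 4.27 ± 0.389 in OVX+FMT and 4.04 ± 0.408 in OVX+PBS (n = 5; adjusted exact p = 0.644), and 4.11 ± 0.182 in OVX+FMT without replicate 4 (n = 4; adjusted exact p = 0.786). By this index replicate 4 was the most diverse of the 10 libraries, at 4.90, and OVX+PBS replicate 5 the least, at 3.41.

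Whether OVX+FMT libraries were nearer than OVX+PBS libraries to another group was asked of each of the other 3 groups. The mean distance to OVX libraries was 0.387, 0.432, 0.441, 0.592 and 0.453 for OVX+FMT replicates 1 to 5, and 0.529, 0.426, 0.461, 0.498 and 0.597 for OVX+PBS replicates 1 to 5. OVX+FMT replicate 4 was the farthest but 1 of the 10. The mean difference was -0.0413 with it (exact permutation p = 0.389, adjusted p = 0.690 over 3 distances) and -0.0741 without it (exact p = 0.0794, adjusted p = 0.226). Distances to OVX+GEX differed by -0.0382 with it (adjusted exact p = 0.690) and by -0.0701 without it (adjusted exact p = 0.226). Those to Sham differed by -0.0165 and -0.00661 (adjusted exact p = 0.722 and 0.905).

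ASVs found in OVX+GEX and in no OVX library, 255 in all, held 1.16, 1.82, 3.08, 5.05 and 8.26% of counts in OVX+FMT replicates 1 to 5 and 2.49, 1.94, 2.89, 10.9 and 9.71% in OVX+PBS replicates 1 to 5. The 3 highest libraries were OVX+PBS replicates 4 and 5 and OVX+FMT replicate 5, and the groups did not separate (3.88% ± 2.87 against 5.59% ± 4.35, SD, n = 5; adjusted exact permutation p = 0.644). A single ASV of Duncaniella, ASV_21, made up 5.33, 7.08 and 5.92% of the counts in those 3 libraries. It was at 0 in the other 7, and of the other 15 libraries it was found in OVX+GEX replicate 5 alone, at 6.60%. The 460 ASVs found in Sham and in no OVX library made up 3.42% ± 2.83 of OVX+FMT counts and 2.97% ± 1.46 of OVX+PBS counts (n = 5; adjusted exact p = 0.897). Replicate 4 was the highest OVX+FMT library for them, at 8.23% against 1.33 to 3.36% in the other 4. Without it the mean was 2.21% ± 1.00, below that of OVX+PBS (n = 4; adjusted exact p = 0.611).

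The 2 leading genera were Duncaniella, a glycan-degrading genus of the Muribaculaceae, and Ligilactobacillus, a lactic acid bacterium of the rodent gut. Ligilactobacillus held 30.2, 27.6, 22.8, 10.2 and 33.5% of counts in OVX+FMT replicates 1 to 5. It held 8.87, 30.0, 16.6, 13.2 and 9.01% in OVX+PBS replicates 1 to 5. Apart from replicate 4 every OVX+FMT library lay above 4 of the 5 OVX+PBS libraries, and OVX+PBS replicate 2 lay among them. The difference was 9.31 points with all 10 libraries (exact permutation p = 0.135, adjusted p = 0.291 over 5 genera) and 12.97 points without OVX+FMT replicate 4 (exact p = 0.0397, adjusted p = 0.119). Replicate 4 was the lowest OVX+FMT library, so leaving it out widens the difference before any test.

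Duncaniella ran the other way, with 30.4, 14.8, 23.4, 9.53 and 35.1% in OVX+FMT replicates 1 to 5 and 28.2, 21.3, 24.7, 44.9 and 61.9% in OVX+PBS replicates 1 to 5. The highest shares were those of OVX+PBS replicates 4 and 5, and the other libraries overlapped. Its difference was -13.6 points with all libraries and -10.3 without OVX+FMT replicate 4 (adjusted exact permutation p = 0.291 and 0.506).

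Gluceribacter, an anaerobe which the deposited taxonomy places in the Lachnospiraceae, held 2.75, 4.54, 2.97, 7.63 and 1.37% in OVX+FMT replicates 1 to 5. It held 8.74, 3.95, 6.32, 4.18 and 9.89% in OVX+PBS replicates 1 to 5. Apart from replicate 4, OVX+FMT replicate 2 alone reached into the OVX+PBS range. The difference was -2.76 points with all libraries (adjusted exact p = 0.291) and -3.71 without replicate 4 (exact p = 0.0476, adjusted p = 0.119). Here replicate 4 was the highest OVX+FMT library, so leaving it out widens the difference before any test. Ruminococcus and Acetivibrio, genera with fibre-degrading species, had differences of 1.10 and -0.889 points (adjusted exact p = 0.690 each), and of 2.41 and -1.18 points without replicate 4 (adjusted exact p = 0.506 and 0.643).

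**Figure D2:**
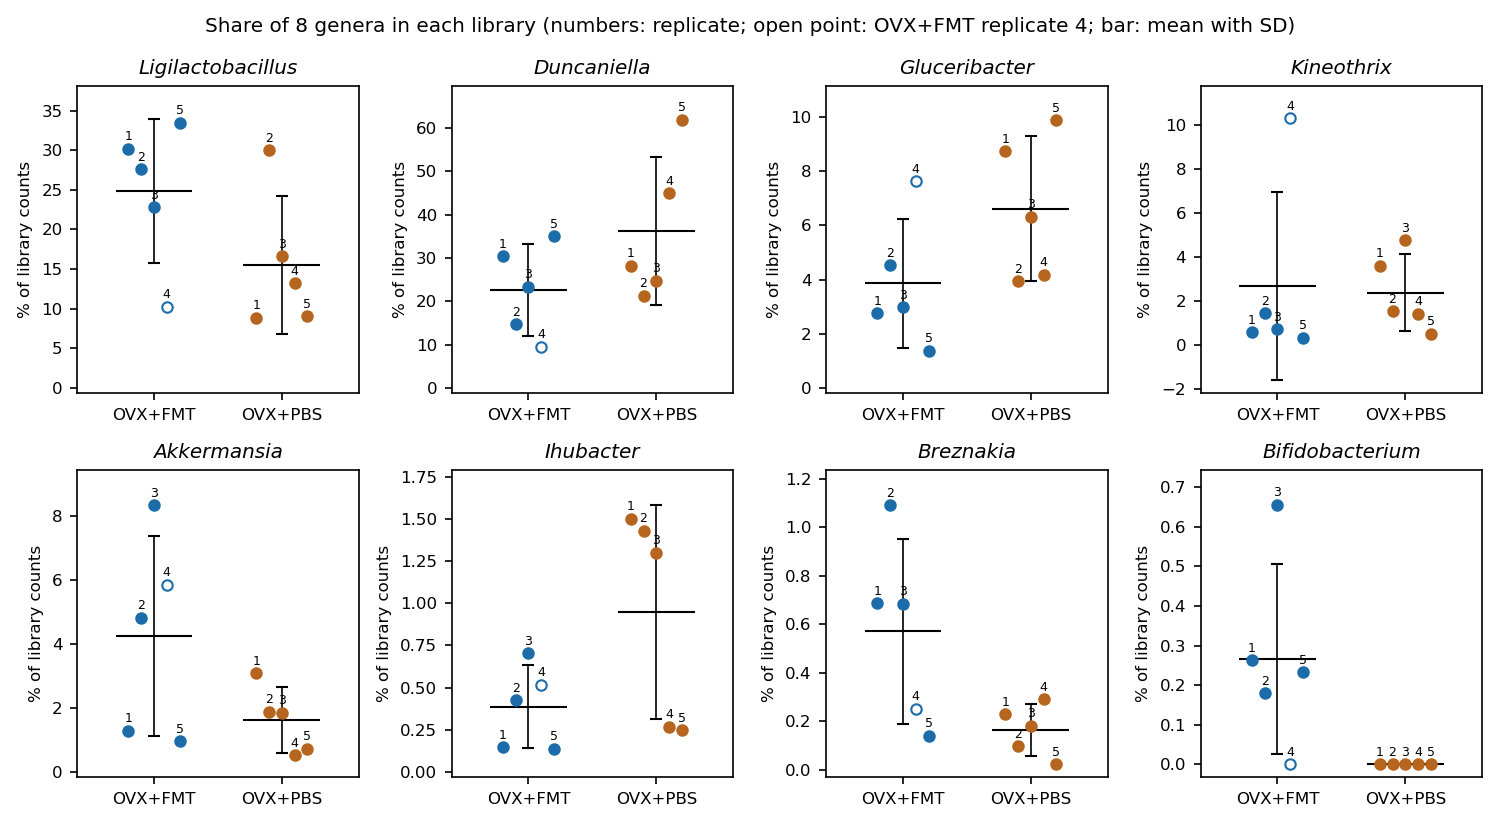
Share of library counts (%) of 8 genera in each OVX+FMT library (blue; replicate 4 open) and OVX+PBS library (brown), with replicate numbers, the group mean as a line and the SD as a bar. Ligilactobacillus is at 22.8 to 33.5% in 4 OVX+FMT libraries and 10.2% in replicate 4, Kineothrix reaches 10.3% in replicate 4 only, and Bifidobacterium is at 0 in replicate 4 and in all OVX+PBS libraries.

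Genera were then tested one by one with edgeR's quasi-likelihood F test with Benjamini-Hochberg adjustment. It called 0 of 81 genera (0.0%) at an adjusted p under 0.05, 0 of 125 species names (0.0%) and 0 of 379 ASVs (0.0%). At an unadjusted p under 0.05 there were 12 genera (14.8%), 8 higher (9.88%) and 4 lower (4.94%). There were 14 species names (11.2%), 9 higher (7.2%) and 5 lower (4.0%), and 80 ASVs (21.1%). DESeq2 called 0 genera and 8 ASVs, and limma on centred log-ratios 1 genus and 2 species names. The median fitted log2 fold change over the 81 genera was 0.62 with all libraries under TMM scaling, and 0.44 to 0.68 under other scalings. It was 0.45 with DESeq2 and -0.01 with limma on centred log-ratios, where each library is centred on its own mean. Single fold changes are to be read against this median. Without OVX+FMT replicate 4 the same test called 2 genera (2.47%), 2 species names (1.6%) and 0 ASVs (0.0%), and the median over genera was 0.00. At an unadjusted p under 0.05 it then had 15 genera (18.5%), 6 higher (7.41%) and 9 lower (11.1%), and 21 species names (16.8%), 10 higher (8.0%) and 11 lower (8.8%).

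The genus called higher without replicate 4 was Bifidobacterium, an acetate-forming and lactate-forming saccharolytic bacterium. It had 59, 19, 66, 0 and 46 counts in OVX+FMT replicates 1 to 5 and 0 in all 5 OVX+PBS libraries. The 4 libraries with counts held 0.263, 0.180, 0.656 and 0.233%. Against a floor of 3 counts per OVX+PBS library this was at least 9.27-fold higher with all libraries (edgeR adjusted p = 0.0812; 0.0142 to 0.323 over the alternatives), and at least 11.6-fold higher without replicate 4 (edgeR adjusted p = 0.0142). Without replicate 3, which held the most, it was at least 5.88-fold higher. All counts carried the species name Bifidobacterium pseudolongum subsp. globosum (edgeR adjusted p = 0.185, and 0.0383 without replicate 4). The counts came from 2 ASVs: ASV_216 in replicates 1 to 3, which was in no other of the 25 libraries, and ASV_441 in replicate 5, which was also in OVX+GEX replicate 5 with 5 counts. ASV_1380 of the genus had 3 counts in Sham replicate 3. Outside OVX+FMT the genus was found in these 2 libraries alone. It thus passed the filter of at least 3 counts in at least 5 libraries only through OVX+FMT, the group where it was high. The call is therefore not independent of the filter. Nor is it independent of leaving out replicate 4, the only OVX+FMT library with 0 counts.

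The genus called lower without replicate 4 was Marvinbryantia, an acetogen (an acetate-forming anaerobe) of the Lachnospiraceae. It had 25, 16, 9, 2 and 0 counts in OVX+PBS replicates 1 to 5. It had 0 counts in OVX+FMT replicates 1, 2, 3 and 5 and 20 in replicate 4, which at 0.211% was the highest of the 10 libraries. Without replicate 4 it was at least 3.53-fold lower in OVX+FMT (edgeR adjusted p = 0.0142), and with it the adjusted p was 0.602. Its species name, Marvinbryantia formatexigens, gave adjusted p-values of 0.0268 and 0.640. The log2 fold change of the genus was -1.11 ± 1.21 with all libraries and -6.25 ± 1.46 without replicate 4, lower in both. Replicate 4 was the only OVX+FMT library with counts, so leaving it out puts OVX+FMT at 0 before any test. The size of this call and its p-value rest on that.

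None of the other genera passed the adjusted threshold in either fit, and they are given as values. Lactococcus, a lactic acid bacterium, had 7, 3, 3, 0 and 8 counts in OVX+FMT replicates 1 to 5 and 0 in OVX+PBS. Its mean of 0.0260% in OVX+FMT is under the OVX+PBS floor, so no fold is given (edgeR adjusted p = 0.289, and 0.115 without replicate 4). Breznakia, of the Erysipelotrichaceae, had 154, 115, 69, 24 and 28 counts in OVX+FMT replicates 1 to 5 and 50, 11, 16, 25 and 2 in OVX+PBS replicates 1 to 5. As shares, 3 OVX+FMT libraries (0.685 to 1.09%) lay above all OVX+PBS libraries (0.0226 to 0.292%), and replicates 4 and 5 lay among them. Its log2 fold change was 1.76 ± 0.65 (SE; edgeR adjusted p = 0.289), and 1.86 ± 0.65 without replicate 4 (adjusted p = 0.115).

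Akkermansia, which feeds on mucin, held 1.29, 4.82, 8.34, 5.85 and 0.968% in OVX+FMT replicates 1 to 5. It held 3.08, 1.88, 1.85, 0.514 and 0.725% in OVX+PBS replicates 1 to 5. OVX+FMT replicates 2 to 4 lay above every OVX+PBS library and replicates 1 and 5 among them (log2 fold change 1.28 ± 0.61, edgeR adjusted p = 0.308; 1.06 ± 0.62 and 0.340 without replicate 4). All Akkermansia counts came from 1 ASV. Turicibacter, a gut bacterium of the Firmicutes, had 167, 34, 52, 0 and 79 counts in OVX+FMT and 4, 6, 24, 15 and 8 in OVX+PBS, in the order of the replicates. It was singled out after its values were seen: with Bifidobacterium and Lactococcus it was 1 of 3 genera (3.7%) whose shares in OVX+FMT without replicate 4 lay wholly above those in OVX+PBS (edgeR adjusted p = 0.252 without that library). Wholly below were 0 genera (0.0%), and with replicate 4 the groups separated for 0 genera (0.0%) in either direction.

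Among genera with lower estimates, Ihubacter, an anaerobe of Family XIII of the clostridia, held 0.147, 0.427, 0.705, 0.517 and 0.137% in OVX+FMT replicates 1 to 5. It held 1.50, 1.43, 1.30, 0.269 and 0.249% in OVX+PBS replicates 1 to 5. OVX+PBS replicates 1 to 3 were high and replicates 4 and 5 lay within the OVX+FMT range (log2 fold change -1.34 ± 0.56, edgeR adjusted p = 0.308; -1.51 ± 0.59 and 0.168 without replicate 4). Anaerostipes, with species that turn lactate into butyrate, had 8, 0, 74, 9 and 74 counts in OVX+FMT and 253, 132, 70, 142 and 18 in OVX+PBS. Its log2 fold change was -1.83 ± 0.88 (edgeR adjusted p = 0.308; 0.306 without replicate 4). Gluceribacter had -1.11 ± 0.50 (adjusted p = 0.308), and -1.57 ± 0.54 without replicate 4 (adjusted p = 0.115). The last of the 4 lower genera at an unadjusted p under 0.05, Faecalicatena, had 10 counts in OVX+PBS replicate 2 and 0 in the other 9 libraries.

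The other 4 genera higher at an unadjusted p under 0.05 were sparse. Anaeroplasma had 4, 0, 3, 3 and 0 counts in OVX+FMT and 0 in OVX+PBS, and Colidextribacter 4 counts in replicate 2 and 6 in replicate 5 of OVX+FMT. Pseudoclostridium had 0, 10, 10, 4 and 7 counts in OVX+FMT and 3 in OVX+PBS replicate 1. The bracketed genus [Bacteroides], a clostridium despite its name, had 13 counts in OVX+FMT replicate 4 alone. Their edgeR adjusted p was 0.308 each.

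OVX+FMT replicate 4 differed from the rest of its group in the summed share of a family. Lachnospiraceae held 37.3% of its counts, against 3.29 to 9.78% in the other 4 OVX+FMT libraries. Kineothrix, a butyrate-forming genus of that family, held 10.3% in it and 0.329 to 1.43% in the others. Lachnoclostridium held 5.56% against 0.0608 to 0.474%, and Eubacterium, which holds butyrate-forming species, 7.36% against 0.638 to 2.30%. With these come its low Ligilactobacillus and Duncaniella and its high Gluceribacter, given above. Of its counts, 12.8% belonged to 87 ASVs found in no other of the 10 libraries. Of these 87, 53 were found in Sham, 26 in OVX and 28 in OVX+GEX. The 318 ASVs found in OVX+FMT and not in OVX+PBS include these 87. Of the 318, 151 were found in Sham, 116 in OVX and 106 in OVX+GEX. Sham libraries held 321 to 438 ASVs each, OVX libraries 218 to 320 and OVX+GEX libraries 186 to 305. Not all genera of the Lachnospiraceae stood apart in replicate 4. Roseburia, Anaerostipes, Mediterraneibacter, Anaerotignum and Robinsoniella lay within the range of the other 4 OVX+FMT libraries. The genera given with values were chosen for their distance from the other OVX+FMT libraries, so these values are a description.

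The Lachnospiraceae therefore read differently with and without that library. Replicate 4 was the OVX+FMT library highest in this family, so leaving it out lowers the family's share before any test. Values, counts and p-values without it are therefore a description. Over all 10 libraries their share was 12.8% ± 13.9 in OVX+FMT and 14.3% ± 4.20 in OVX+PBS (SD, n = 5; adjusted exact permutation p = 0.960 over 14 lists). Without it the OVX+FMT share was 6.65% ± 2.70, or 7.69 points lower, and all 4 libraries lay below the lowest OVX+PBS library (n = 4; exact p = 0.0159, adjusted p = 0.167). Of the 22 genera of the family that were tested, 11 had higher and 11 lower estimates over all libraries (median log2 fold change -0.04, against 0.62 for all 81 genera). Without replicate 4, 4 had higher and 17 lower estimates (median -1.04, against 0.00 for all genera). Of these, 7 were lower at an unadjusted p under 0.05, among 9 lower genera of all 81 (11.1%), and only Marvinbryantia passed the adjusted threshold. The other 6 were Gluceribacter, Kineothrix, Lachnoclostridium, Faecalicatena, Eisenbergiella and Butyribacter.

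**Figure D3:**
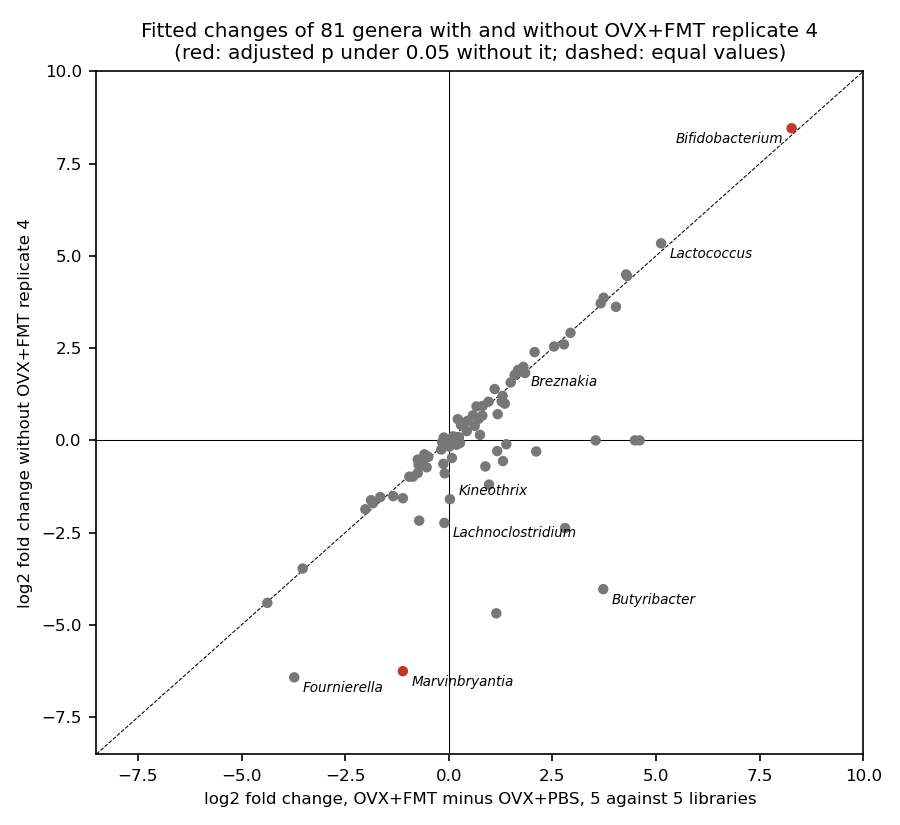
Fitted log2 fold changes of 81 genera, OVX+FMT minus OVX+PBS, with all 10 libraries (horizontal axis) and without OVX+FMT replicate 4 (vertical axis); each point is a genus and red points have an adjusted p under 0.05 without that library. Most points lie along the dashed line of equal values; Marvinbryantia, Butyribacter, Kineothrix and Lachnoclostridium lie below it. Changes of genera at 0 in a group depend on the small count that edgeR adds.

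Lists of genera grouped by what their members are known to do were compared by their summed shares, and none of the 14 lists with counts passed the adjusted threshold with or without replicate 4. With the smallest exact p of 0.00794, a list alone cannot fall below 0.111 after adjustment over 14. Such a share says nothing of whether the bacteria make the product. Bracketed genus names were matched to the lists without their brackets. Replicate 4 was the lowest OVX+FMT library for lactic acid bacteria with bifidobacteria. It was the highest for butyrate producers, genera with trimethylamine-forming members, acetogens, Family XIII anaerobes and Adlercreutzia. For these, values and p-values without it are a description. Lactic acid bacteria with bifidobacteria made up 25.6% ± 9.28 of OVX+FMT counts and 16.3% ± 9.23 of OVX+PBS counts (n = 5; adjusted exact p = 0.407), and 29.4% ± 4.13 without replicate 4 (n = 4; exact p = 0.0476, adjusted p = 0.167). Of their 4 tested genera 3 had higher estimates, and Lactobacillus, at 0.463% ± 0.359 against 0.721% ± 0.643, the lower. Butyrate producers held 9.50% ± 7.30 against 8.88% ± 3.09 (adjusted exact p = 0.960), with replicate 4 at 22.2%, and 6.32% ± 1.90 without it (n = 4; adjusted exact p = 0.458). Genera with members that form trimethylamine, a precursor of trimethylamine N-oxide, held 2.27% ± 3.04 against 2.80% ± 1.56 (adjusted exact p = 0.960), with replicate 4 at 7.67%, and 0.919% ± 0.454 without it (n = 4; exact p = 0.0794, adjusted p = 0.222).

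Family XIII anaerobes and relatives made up 4.44% ± 2.60 of OVX+FMT counts and 7.74% ± 2.66 of OVX+PBS counts (adjusted exact p = 0.407). Without replicate 4 they held 3.45% ± 1.57 (n = 4; exact p = 0.0397, adjusted p = 0.167), and most of these counts were Gluceribacter, which the deposited table files under Lachnospiraceae. Erysipelotrichaceae held 0.745% ± 0.429 against 0.296% ± 0.124 (exact p = 0.0635, adjusted p = 0.407), and 0.818% ± 0.458 without replicate 4 (n = 4; exact p = 0.0397, adjusted p = 0.167). Acetogens held 1.15% ± 0.824 against 0.508% ± 0.397 and mucus-associated genera 6.17% ± 2.78 against 4.37% ± 1.16 (adjusted exact p = 0.407 and 0.444). Without replicate 4 they held 0.811% ± 0.357 and 5.83% ± 3.09 in OVX+FMT (n = 4; adjusted exact p = 0.458 and 0.525). The mucus-associated list also took in the bracketed genus [Bacteroides], a clostridium found in OVX+FMT replicate 4 alone, at 0.137%. Adlercreutzia, the only genus found of the isoflavone-converting Eggerthellaceae, held 0.973% ± 0.380 against 0.599% ± 0.265 (adjusted exact p = 0.407), and 0.836% ± 0.262 in OVX+FMT without replicate 4 (n = 4; adjusted exact p = 0.458). Fibre-degrading clostridia held 17.8% ± 4.94 against 17.6% ± 8.08, and Oscillospiraceae with Ruminococcaceae 21.7% ± 4.63 against 19.8% ± 8.41 (adjusted exact p = 0.960 for both). Without replicate 4 these held 18.8% ± 5.04 and 22.4% ± 5.04 (n = 4; adjusted exact p = 0.841 and 0.769). Bacteroidaceae, Rikenellaceae and Prevotellaceae, here Bacteroides alone, held 1.52% ± 0.839 against 2.22% ± 0.973 (adjusted exact p = 0.444), and 1.66% ± 0.901 in OVX+FMT without replicate 4 (n = 4; adjusted exact p = 0.525). Enterobacterales held 0.0272% ± 0.0394 against 0.280% ± 0.477 (adjusted exact p = 0.568), most of it in OVX+PBS replicate 5, and 0.0340% ± 0.0419 in OVX+FMT without replicate 4 (n = 4; adjusted exact p = 0.528). The Muribaculaceae were Duncaniella alone.

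Of the 80 ASVs at an unadjusted p under 0.05, 54 had 0 counts in OVX+PBS and 24 had 0 counts in OVX+FMT. Over all 379 ASVs tested, 65 (17.2%) were found in OVX+FMT with 0 counts in OVX+PBS and 26 (6.86%) the other way round, so an ASV absent from 1 group was often among the 80, and nothing is read from their number. Of the 12 genera at an unadjusted p under 0.05, 5 had 0 counts in OVX+PBS and 1 had 0 in OVX+FMT, against 9 (11.1%) and 1 (1.23%) of the 81 tested. Of the 80, 13 were found in OVX+FMT replicate 4 alone of the 10 libraries. Of the 80, 56 (14.8% of the ASVs tested) had higher and 24 (6.33%) lower estimates. Without replicate 4 there were also 80 (21.1%), of which 42 (11.1%) were higher and 38 (10%) lower.

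Of the 903 ASVs, 5 (0.554%) were found in at least 4 OVX+FMT and in 0 OVX+PBS libraries, and 1 (0.111%) in at least 4 OVX+PBS and in 0 OVX+FMT libraries. With at least 3 libraries the counts were 21 (2.33%) and 11 (1.22%). After thinning to equal depth they were 4 and 1, and 22 and 11. All 5 and the 1 were also found in Sham, OVX and OVX+GEX libraries, so none of them was seen in transplanted mice alone.

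ASV_80, named Eubacterium coprostanoligenes after a species that reduces cholesterol to coprostanol, was the only one of the 5 found in all OVX+FMT libraries, with 27, 9, 97, 26 and 2 counts in replicates 1 to 5. Its highest share was 0.964%, in replicate 3. It was at least 10.1-fold higher than the OVX+PBS floor with all libraries and at least 4.26-fold without replicate 3 (edgeR adjusted p = 0.0661, and 0.107 without replicate 4; 0.00232 to 0.286 over the alternatives). It was also found in 3 Sham, 4 OVX and 2 OVX+GEX libraries. All ASVs of this species name together held 0.872% of OVX+FMT and 1.07% of OVX+PBS counts, so the species name as a whole was not higher. Its log2 fold change was -0.42 ± 0.90 (edgeR adjusted p = 0.864), and -0.22 without replicate 4 (adjusted p = 0.993). ASV_70 of Ligilactobacillus murinus had 96, 34, 25, 0 and 93 counts in OVX+FMT and was at least 10.2-fold higher (edgeR adjusted p = 0.0661, and 0.0668 without replicate 4; 9.22e-05 to 0.286 over the alternatives). The lowest adjusted p of both came from DESeq2's Wald test. The others were ASV_376 of Acetivibrio straminisolvens, ASV_177 of Kineothrix alysoides and ASV_474 of Lactococcus formosensis, with 28, 25 and 21 counts in all (edgeR adjusted p = 0.175 each).

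The ASV found in 4 OVX+PBS and 0 OVX+FMT libraries was ASV_121 of Ihubacter massiliensis, with 32, 20, 19, 0 and 7 counts, at least 5.24-fold lower in OVX+FMT (edgeR adjusted p = 0.151). Of the 24 ASVs at an unadjusted p under 0.05 with 0 counts in OVX+FMT, 6 were found in all of OVX+PBS replicates 1 to 3 and in neither replicate 4 nor 5. ASV_48, ASV_57 and ASV_59, all named [Clostridium] scindens after a bacterium that dehydroxylates bile acids, had 80, 43 and 30, then 72, 19 and 19, then 70, 33 and 36 counts in those 3 libraries and 0 in replicates 4 and 5. The lowest adjusted p among them was that of ASV_48, at least 9.22-fold lower in OVX+FMT (edgeR adjusted p = 0.0661). ASV_62, of the same species name, had 66 counts in OVX+FMT replicate 4 and 0 in the other 9 libraries. Over all its ASVs, this species name held 0.791% of OVX+FMT and 0.916% of OVX+PBS counts. The log2 fold change of the species name was -0.81 ± 1.04 (edgeR adjusted p = 0.831), and -2.48 without OVX+FMT replicate 4 (adjusted p = 0.249). ASV_54 of Kineothrix alysoides had 75, 3 and 59 counts in OVX+PBS replicates 1 to 3 (at least 8.82-fold lower in OVX+FMT, or 3.92-fold without OVX+PBS replicate 3; edgeR adjusted p = 0.0661).

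The rest of the ASVs with the smallest p were found in 2 or 3 of the 10 libraries each. Some were also found in all 3 of the other groups: ASV_105 in 5 Sham, 2 OVX and 3 OVX+GEX libraries, and ASV_52 in 4, 2 and 2. ASV_52 of Anaerobacterium chartisolvens had 31, 61 and 9 counts in OVX+FMT replicates 1 to 3, while ASV_193 of the same species name had 21 and 58 in OVX+PBS replicates 1 and 3. ASV_77 and ASV_144, both of Eubacterium xylanophilum, were found in OVX+FMT replicates 1, 3 and 4, with 57, 26 and 50 and with 26, 14 and 29 counts. That species name as a whole had a log2 fold change of -0.23 ± 0.74 (edgeR adjusted p = 0.925), and -1.44 without OVX+FMT replicate 4 (adjusted p = 0.249). ASV_105 of Robinsoniella peoriensis had 34, 10 and 17 counts in OVX+FMT replicates 2 to 4, and ASV_258 of Duncaniella dubosii 28, 12 and 22 in replicates 1 to 3. On the OVX+PBS side, ASV_331 of Ihubacter massiliensis had 40, 15 and 11 and ASV_384 of [Clostridium] populeti 22, 28 and 3 in replicates 1 to 3. The edgeR adjusted p of these ASVs was 0.131 to 0.175. Of the other 15 libraries, ASV_331 was found in 3 Sham libraries, ASV_384 in 1 Sham and 2 OVX+GEX, and ASV_144 in 1 Sham and 2 OVX. They passed the filter of at least 3 counts in at least 5 libraries only through the group where they were high. Their p-values are therefore not independent of the filter.

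**Figure D4:**
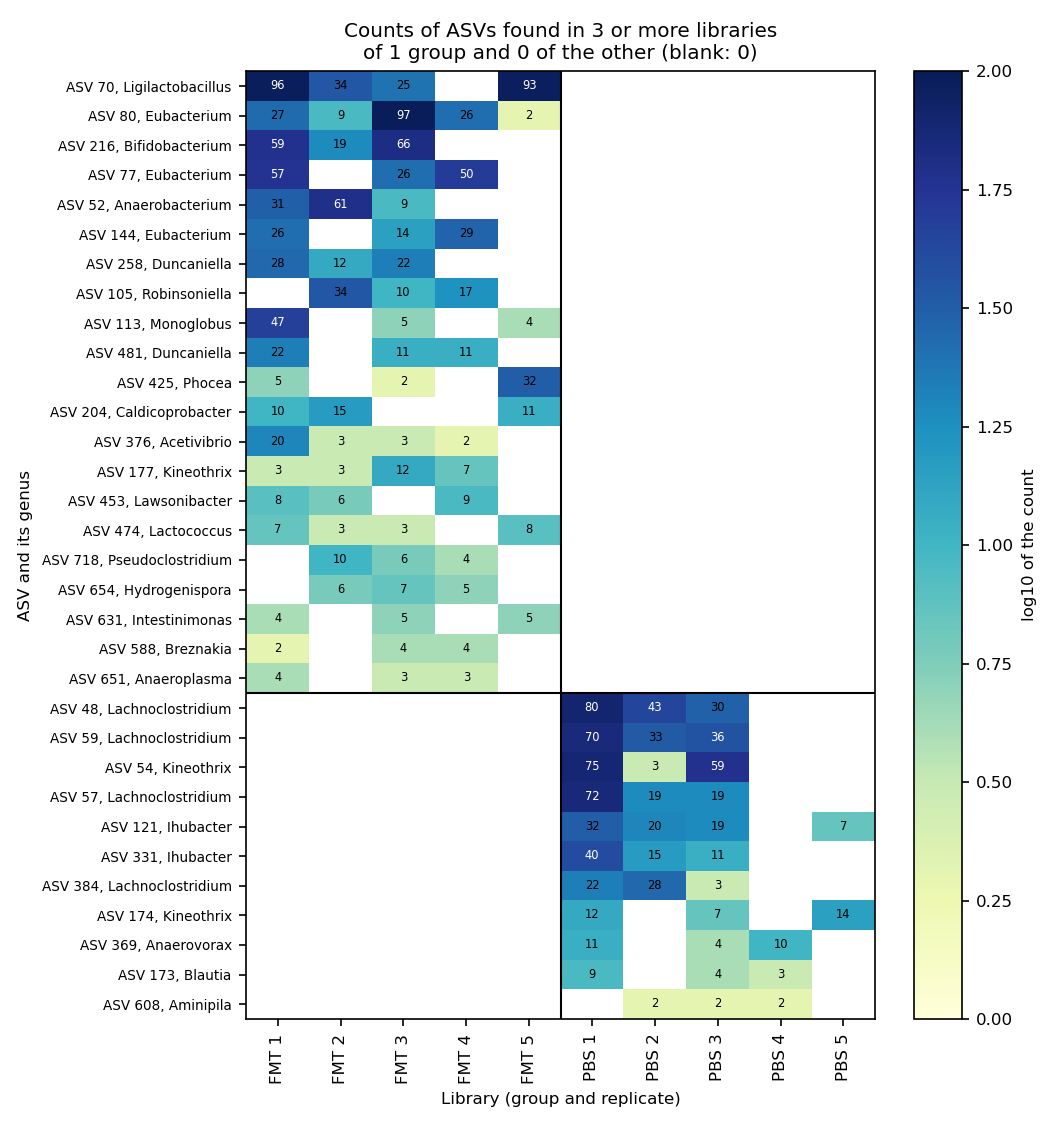
Counts of the 21 ASVs found in at least 3 OVX+FMT and 0 OVX+PBS libraries (upper block) and of the 11 found in at least 3 OVX+PBS and 0 OVX+FMT libraries (lower block), with colour as log10 of the count and blank cells for 0. ASV_80 alone fills all 5 columns of its group, and ASV_48, ASV_57, ASV_59, ASV_54, ASV_331 and ASV_384 fill OVX+PBS replicates 1 to 3.

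The make-up of a genus was compared apart from its size, by the proportions of its ASVs. Among the 8 genera that could be tested (Akkermansia and Bacteroides have 1 ASV each), Ligilactobacillus had the highest R2, 0.461 with all libraries and 0.505 without OVX+FMT replicate 4. Its exact permutation p was 0.00794, the smallest possible, in both, and 0.0635 after adjustment over the 8 genera, which is the lowest that 1 genus alone can reach there. Duncaniella followed with 0.221 (exact p = 0.167, adjusted p = 0.667), and the adjusted exact p of the other 6 was 0.929.

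In Ligilactobacillus, 6 ASVs of Ligilactobacillus murinus made up 92.3 to 98.1% of the genus in every library, each at 10.9 to 20.2% of it. ASV_11 made up 12.4, 10.9, 13.8, 14.3 and 12.3% of the genus in OVX+FMT replicates 1 to 5 and 15.3, 15.4, 16.0, 16.9 and 15.6% in OVX+PBS replicates 1 to 5. The groups did not overlap, OVX+FMT being lower, and replicate 4 lay with its group. The gap between them was 1.01 points, while the Wilson half-width of this proportion in 1 library was 0.786 to 2.52 points. ASV_2 made up 18.3 to 19.7% in OVX+FMT and 16.9 to 18.2% in OVX+PBS, a gap of 0.0607 points that is far inside counting error (half-widths of 0.932 to 2.68 points). ASV_3 overlapped, at 16.6 to 18.4% against 15.6 to 20.2%. Of the 10 ASVs of the genus in these libraries, 3 (30.0%) did not overlap between the groups (ASV_11, ASV_2 and ASV_34) and 7 did, among them ASV_5, ASV_6, ASV_9 and ASV_36. Of the minor ASVs, ASV_34 made up 2.33, 2.54, 2.70, 4.02 and 2.95% in OVX+FMT, above the 0, 1.07, 1.85, 0 and 0% in OVX+PBS. Its gap was 0.481 points, within the range of its Wilson half-widths (0.0994 to 1.25 points). ASV_70 made up 1.42, 1.17, 1.09 and 1.41% in OVX+FMT replicates 1, 2, 3 and 5. In OVX+PBS its 0 counts among 1929, 3379, 1457, 1133 and 796 counts of the genus allow at most 0.156, 0.0888, 0.206, 0.265 and 0.377%, and in OVX+FMT replicate 4, with 970 counts of the genus, 0.309%. ASV_70 was found in 12 of the 15 other libraries, so it is not particular to the transplant. These ASVs, and those of Duncaniella below, were described after their values were seen, and no test of single ASV proportions was made.

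In Duncaniella, ASV_27 of Duncaniella dubosii made up 4.32, 6.36, 5.23, 4.87 and 4.65% of the genus in OVX+FMT replicates 1 to 5 and 1.29, 1.29, 1.39, 2.83 and 2.54% in OVX+PBS replicates 1 to 5. ASV_29 of the same species name made up 4.20 to 5.10% in OVX+FMT and 1.03 to 3.11% in OVX+PBS. Neither overlapped between the groups, with gaps of 1.48 and 1.09 points and Wilson half-widths of up to 1.41 and 1.32 points, and OVX+FMT replicate 4 lay with its group for both. They were 2 of 25 Duncaniella ASVs (8.0%), and the other 23 overlapped. ASV_1 of Duncaniella freteri was the leading ASV, with 14.1 to 23.3% in OVX+FMT. In OVX+PBS it made up 36.5, 38.1 and 36.3% in replicates 1 to 3 but 19.5 and 10.6% in replicates 4 and 5, where ASV_21, of the same species name, made up 11.9 and 11.4%. In OVX+FMT replicate 5 both were the highest of their group, ASV_1 at 23.3% and ASV_21 at 16.9%. ASV_7 and ASV_8, of Duncaniella dubosii, overlapped, at 8.99 to 16.8% against 10.3 to 17.2% and 9.34 to 17.1% against 10.6 to 16.6%. Over the 15 other libraries ASV_29 was found in all and ASV_27 in 14.

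**Figure D5:**
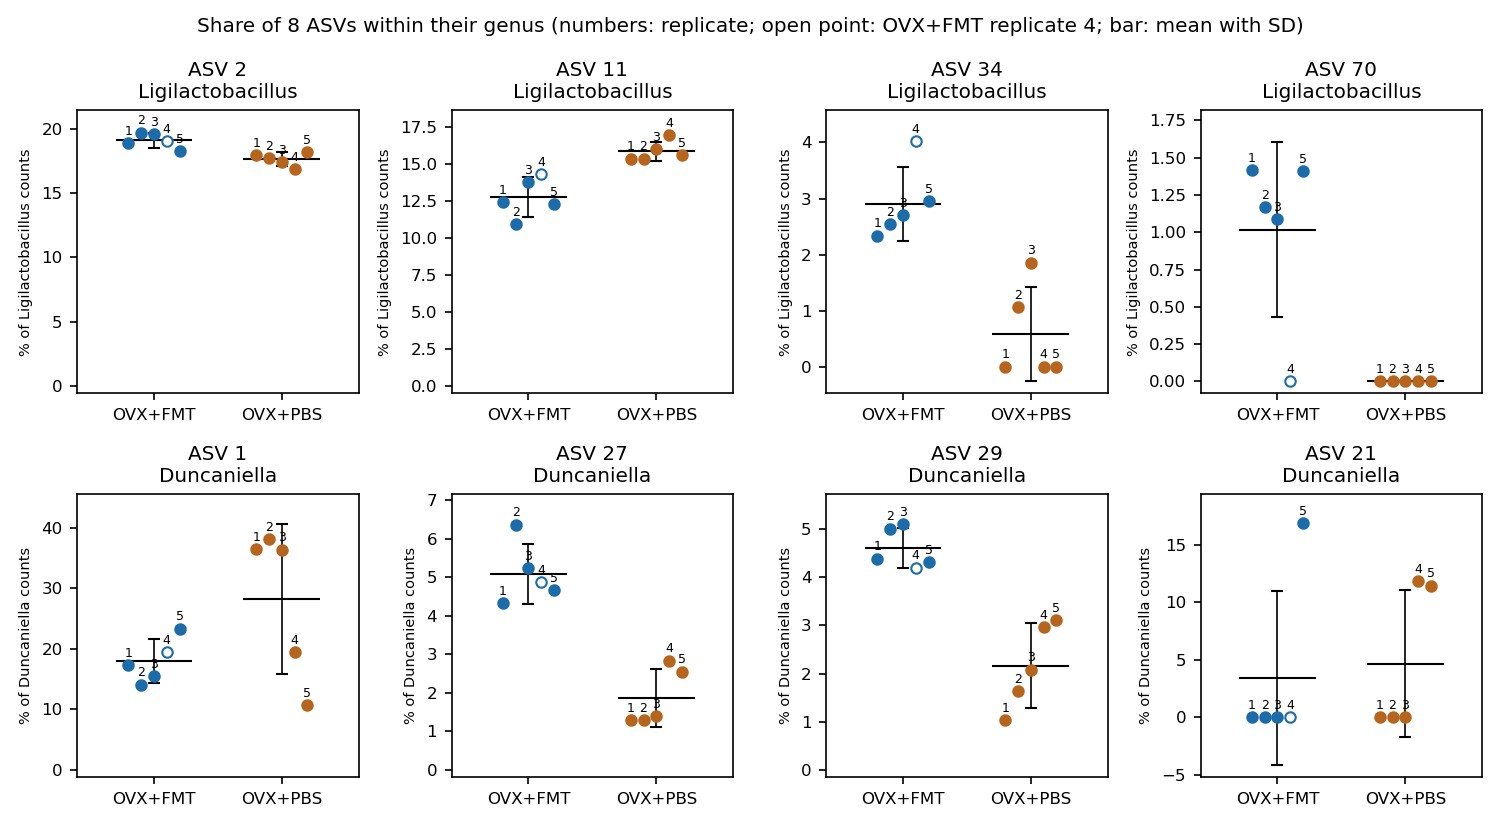
Share (%) of 4 ASVs among Ligilactobacillus counts (upper row) and of 4 ASVs among Duncaniella counts (lower row) in each OVX+FMT library (blue; replicate 4 open) and OVX+PBS library (brown), with replicate numbers, group mean as a line and SD as a bar. ASV_2 (by 0.0607 points), ASV_34, ASV_27 and ASV_29 are higher and ASV_11 lower in every OVX+FMT library than in any OVX+PBS library, while ASV_21 is found in OVX+FMT replicate 5 and OVX+PBS replicates 4 and 5 alone.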

How the data were processed

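The authors deposited 1 table of whole-number counts per ASV with taxonomy for 25 libraries, converted from a BIOM file per the file headers. Subread is named in the submitters' processing notes without version or role; the denoiser, primers and taxonomy database are not stated in these sources. No count was 1. All sample columns were used, matched by name; the OVX+GEX columns are spelled OVX+GES.

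Counts summed per genus, per species name, and per ASV were tested with edgeR 4.0.16 (R 4.3.3; quasi-likelihood F test, TMM, 25 libraries in 1 fit) where at least 3 counts occurred in at least 5 libraries, with Benjamini-Hochberg adjustment at 0.05. Standard errors came from the F statistic. Single values per library were compared by exact permutation tests (two-sided); richness was computed for 8498 reads. On simulated 8-fold changes the edgeR test recovered 93.8% of 16 genera and 75% of 76 ASVs, with 1 and 6 false calls. The simulation gave every taxon the same spread, unlike the real counts, so it checks the code and does not give the power here. Alternatives were other scalings, filters and tests (DESeq2 1.42.0, limma 3.58.1), other distances and depths, and each library left out. Named taxa were those past the threshold, those with the smallest p, the 5 most abundant genera, those found in 1 group only and those setting OVX+FMT replicate 4 apart; further ones were chosen after their values were seen. The comparison and the lists were chosen with earlier results of these data known. The labels state no pairing by replicate number. Deviations of same-numbered libraries correlated at -0.19, 0.16, -0.11, -0.19 and 0.20. For OVX+FMT replicates 2 and 5 the same-numbered OVX+PBS library was the best match. These values cannot decide whether samples were paired, and the main tests took them as unpaired.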

Additional observations from a re-analysis of the deposited data

Results flagged for a closer look

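Within groups of 5 libraries, the highest or lowest value was set apart from the rest by Dixon's criterion (0.71 of the range) in 8 of 54 groups of values tested; chance alone marks about 1 in 20. For OVX+FMT replicate 4 there were 4: its mean distance to OVX+GEX libraries (0.618, against 0.435 to 0.484 in the other 4), its butyrate producers (22.2% against 3.50 to 7.54%), its genera with trimethylamine-forming members (7.67% against 0.405 to 1.35%) and its Lachnospiraceae (37.3% against 3.29 to 9.78%). These lists share genera, so the marks are not independent. OVX+PBS replicate 5 had 3: fibre-degrading clostridia (3.59% against 19.5 to 24.1%), Oscillospiraceae with Ruminococcaceae (5.13% against 21.5 to 25.5%) and Enterobacterales (1.11% against 0 to 0.269%). OVX+FMT replicate 5 had 1, for Bacteroidaceae, Rikenellaceae and Prevotellaceae (2.98% against 0.970 to 1.34%).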

How the results depend on the processing

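Genera called were 1 with limma, 1 with no filter on low counts and 0 to 2 with a library left out; species names called were 2 with limma, 1 with only the 10 libraries in the fit and 0 to 2 with a library left out. ASVs called were 8 with DESeq2 (which gave no adjusted p for 265) and 2 (ASV_70 and ASV_80) with only the 10 libraries. In each case the 2 calls with a library left out came without OVX+FMT replicate 4. With the replicate block, 0 genera, 0 species names and 0 ASVs were called; the block pairs only numbers. Without the 3 deepest libraries, an alternative chosen after seeing the data, 0, 0 and 0 were called. The difference in scatter ran from -0.0732 to 0.0320 with a library left out, that in distance to Sham from -0.0368 to 0.0172, and that in the share of Sham ASVs from -0.763 to 0.965 points, and it was -0.0307 when 2 Sham libraries were required. The cause was not tested. None of these differences passed its threshold. Estimates changed sign without the 3 deepest libraries for Acetivibrio (1.48 points), genera with trimethylamine-forming members (0.985) and Lachnospiraceae (5.29), and on a log2 scale for butyrate producers (-0.10). With a library left out, the ranges were -0.352 to 2.41 points for Ruminococcus, -2.01 to 0.579 for Acetivibrio, -2.56 to 2.12 for butyrate producers, -3.34 to 1.80 for fibre-degrading clostridia, -7.69 to 0.821 for Lachnospiraceae, -1.83 to 3.26 for Oscillospiraceae with Ruminococcaceae, and an R2 of -0.00418 to 0.121 within Gluceribacter. For the composition within Ligilactobacillus R2 was 0.396 without the 3 deepest libraries (exact permutation p = 0.0286, adjusted p = 0.229) and 0.408 with Jaccard distances (adjusted exact p = 0.190). Depth limits taxa under about 3 counts a library.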

Other observations

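The presence pattern that held the most counts, among ASVs found in 2 to 8 of the 10 libraries, joined both groups: 4 ASVs of Duncaniella, Oscillibacter and Shigella were found in exactly OVX+FMT replicate 5 and OVX+PBS replicates 4 and 5, with 3175 counts or 8.17 to 9.40% of each library. Of the other 15 libraries OVX+GEX replicate 5 held the most of them, 6.60%. A set of 6 ASVs of Ihubacter, Kineothrix and Lachnoclostridium was found in exactly OVX+PBS replicates 1 to 3, with 1.25 to 1.80% of each. OVX+PBS replicates 1 and 2 shared 16 ASVs found in no other of the 10 libraries, the most of any pair, and OVX+FMT replicates 1 and 2 shared 10, as did OVX+FMT replicate 4 and OVX+PBS replicate 3. These patterns were chosen after the values were seen and were not tested, and the labels do not say which mice shared a cage.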
